A study of Mus musculus with 6 samples.

Results

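The 6 genes Sec61b, Erp44, Dnaja1, Bag1, Creb3 and Txn1 act where proteins enter the endoplasmic reticulum, are folded there or in the cytosol, and are kept in the right redox state. They were taken by name, as the rows of the deposited count table that carry these symbols, and make up 6 of its 55357 rows. The choice was made with earlier results of these data known, and the rule itself uses no measured value. Liver RNA of 6 C57BL/6 mice was sequenced, with 1 library per mouse. All of the mice were ABX mice, whose gut microbiota was depleted with gentamicin, sulbenicillin, cephalosporin and amphotericin B in the drinking water, so there is no group with an intact microbiota among these libraries. The 3 NLD mice lived under 12 h of light and 12 h of dark, and the 3 SD mice under a short day with 8 h of light and 16 h of dark. The labels place the samples at day 28, while the methods describe a longer feeding period. By the methods the mice were housed singly, fasted before sampling and killed in the morning, in the light phase of both cycles. The strain is given as C57BL/6N in the methods. Neither sex nor age is stated in the labels or methods used.

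A secretory or membrane protein reaches the endoplasmic reticulum as its chain is being made, passes through the Sec61 channel, and is folded in the lumen while disulfide bonds form. In the cytosol, folding is carried by Hsp70 chaperones, which J-domain proteins load with clients and nucleotide exchange factors empty again. Hepatocytes secrete most plasma proteins and so carry a large endoplasmic reticulum, and transcription factors held in its membrane report its state to the nucleus.

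The libraries held between 5497797 and 6932965 counts, and 16129 rows had a count in at least 1 library. Of the rows, 7261 passed the filter on low counts and were tested, all 6 members among them. The labels and the methods name different genome builds, GRCm38 and GRCm39, and only 662 of 32851 promoter windows in RefSeq, 2.02%, have the same bases at the same coordinates in both. The first stretch of chromosome 4 is one place where they do, for 489 of 489 windows up to base 60140106 and 0 of the 1564 after it. All 6 members lie in that stretch, so their coordinates refer to the same place in either build. Only promoter windows were compared, and the gene models can still differ between annotations, as described below for Dnaja1 and Creb3. In this and the other stretches with shared positions lie 327 tested rows. Outside of these, a gene name below refers only to the row of that name. Of 25 hepatocyte markers, 12 were at 0 in every library, and albumin, Alb, did not exceed 2.79 CPM. This unit scales counts to the size of the library times its TMM normalization factor, which ran from 0.929 to 1.07. Libraries that lie close together can change order with these factors. At shared positions the hepatocyte genes Baat and Cyp7a1 were at or above 1040.5 CPM in all 6 libraries. The rows of 11 of 12 markers of Kupffer cells and 6 of 7 of neutrophils were at 0 in every library, and both lists lie outside the stretches. On the first principal component, with 30.3% of the variance, NLD replicate 2 stood apart at 75.0 against -44.7 to 27.7 in the other 5 libraries. NLD replicate 3 was at 27.7, while NLD replicate 1, at -14.8, lay within the range of the SD libraries (-44.7 to -13.3).

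None of the 6 genes was called between SD and NLD. With edgeR's quasi-likelihood test, 0 of 6 had an adjusted p under 0.05, against 0.289% of all tested rows, and 0 of 6 had an unadjusted p under 0.05, against 8.48%. DESeq2 also gave 0 of 6 at either threshold. In 0 of 6 were the SD and NLD libraries free of overlap, against 17.0% of all tested rows and 77 of the 327 at shared positions. Of the members, 3 had a log2 fold change above 0 and 3 below, with a median of -0.03, beside 0.03 for all 7261 tested rows and 0.04 for the 327 at shared positions. Of those 327 rows, 46 (14.1%) had an unadjusted p under 0.05, and 1, Rusc2, had an adjusted one (133 ± 16.4 CPM under NLD and 332 ± 33.4 under SD, standard deviation, n = 3, log2 fold change 1.32). The call of Rusc2 was lost when any 1 library was left out (adjusted p = 0.0609 to 0.219 from edgeR). DESeq2 on all 6 libraries also called Rusc2 (adjusted p = 5.06e-12 on the same rows and 1.55e-07 with no filter). With 3 mice a group, an exact permutation test of 1 gene cannot give a p below 0.1. The values come from whole liver, in which fewer cells of a type and less RNA per cell cannot be told apart.

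**Figure D1:**
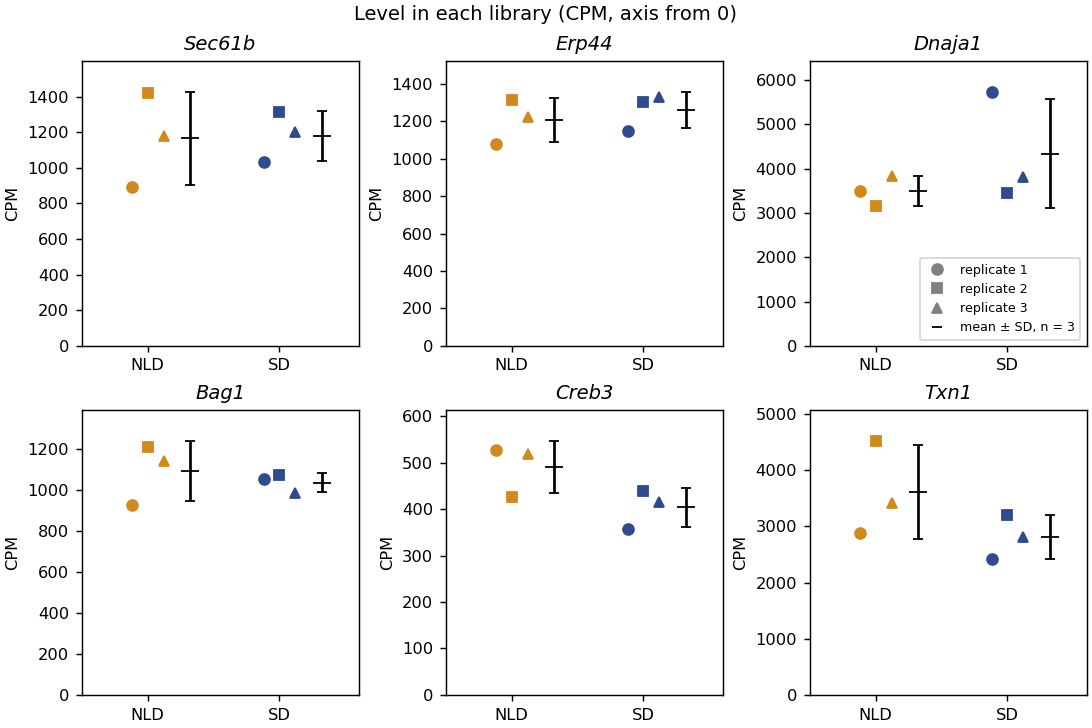
Level of each of the 6 genes in CPM in the 3 NLD and 3 SD libraries (counts scaled to library size times TMM factor, vertical axis from 0). The marker shape gives the replicate number and the bars the mean ± standard deviation (n = 3). The groups overlap in all 6 panels, and Dnaja1 has 1 SD library, replicate 1 at 5736 CPM, above the rest.

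Translocation is represented by Sec61b (ENSMUSG00000053317.12), the beta subunit of the Sec61 channel, on the plus strand of chromosome 4 from 47474614 to 47483864 in GRCm39. Its promoter window, the 250 bases before and 50 from the RefSeq start in GRCm38.p6 (chr4:47474411-47474710, plus strand, 5′ to 3′), is printed because these bases stand at the same coordinates in both builds. Capitals mark the only match in it to a motif searched, TGACNNNGC, the core of the antioxidant response element, read on the opposite strand and held by 12.4% of all windows.
Sec61b: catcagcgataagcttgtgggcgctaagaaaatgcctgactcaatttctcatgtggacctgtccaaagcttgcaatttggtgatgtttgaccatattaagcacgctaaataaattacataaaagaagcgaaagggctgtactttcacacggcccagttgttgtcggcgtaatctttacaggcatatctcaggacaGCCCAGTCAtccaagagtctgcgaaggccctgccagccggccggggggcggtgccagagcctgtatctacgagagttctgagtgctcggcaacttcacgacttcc

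The level of Sec61b was 895, 1420.0 and 1181 CPM in NLD replicates 1, 2 and 3, and 1030.1, 1311 and 1199.9 CPM in SD replicates 1, 2 and 3. The NLD libraries held both the lowest and the highest value of the 6, and the SD libraries lay inside their range. The means were 1165 ± 263 CPM under NLD and 1180.4 ± 142 under SD (standard deviation, n = 3). The log2 fold change was 0.02 (standard error 0.20, 95% interval -0.45 to 0.49, adjusted p = 0.983 from edgeR, exact permutation p = 0.9).

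Erp44 (ENSMUSG00000028343.11) encodes a thioredoxin-fold protein of the early secretory pathway that holds back Ero1 enzymes and unfinished proteins through thiol bonds. It lies on the minus strand of chromosome 4 from 48190717 to 48280022 in GRCm39. RefSeq gives a pair of starts for it, and the window of the upstream one (chr4:48279586-48279885, minus strand) is printed with its CCAAT box in capitals, a motif that 37.4% of all windows hold on either strand.
Erp44: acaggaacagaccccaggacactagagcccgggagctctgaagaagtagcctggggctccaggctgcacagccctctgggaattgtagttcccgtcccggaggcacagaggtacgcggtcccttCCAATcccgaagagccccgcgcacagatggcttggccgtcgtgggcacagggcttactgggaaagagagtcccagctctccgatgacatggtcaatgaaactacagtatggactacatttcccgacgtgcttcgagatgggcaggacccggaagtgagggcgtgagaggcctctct

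Erp44 was at 1080.2, 1316 and 1220.5 CPM in NLD replicates 1, 2 and 3. The SD libraries gave 1148, 1302 and 1331 CPM, of which only replicate 3 was above all NLD values. The spread of this gene was the narrowest of the members, with a highest value 1.23 times the lowest. The means were 1205 ± 118 and 1260.4 ± 98.3 CPM (standard deviation, n = 3). SD against NLD came to a log2 fold change of 0.06 (standard error 0.13, interval -0.25 to 0.38, adjusted p = 0.904 from edgeR, exact permutation p = 0.6).

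Dnaja1 (ENSMUSG00000028410.14) is a J-domain co-chaperone that stimulates the ATPase of Hsp70. It lies on the plus strand of chromosome 4 from 40722056 to 40737149 in GRCm39. The window of its first RefSeq start (chr4:40722218-40722517, plus strand) is printed because it holds, at position -124 from the start, the only match among all member windows to GAANNTTC, a core of the heat shock element, shown in capitals. That motif is in 7.86% of all windows, and a match is a description of the letters only.
Dnaja1: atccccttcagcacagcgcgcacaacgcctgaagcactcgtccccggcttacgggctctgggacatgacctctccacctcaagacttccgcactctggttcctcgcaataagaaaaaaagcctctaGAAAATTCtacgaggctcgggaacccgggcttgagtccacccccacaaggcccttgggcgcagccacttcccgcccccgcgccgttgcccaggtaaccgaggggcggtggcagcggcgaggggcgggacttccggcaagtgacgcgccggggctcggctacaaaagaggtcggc

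Dnaja1 was at 3499, 3157 and 3833 CPM in the NLD libraries. In the SD libraries it was at 5736, 3448 and 3813 CPM. SD replicate 1 was thus higher than every other library, while SD replicates 2 and 3 lay within the NLD range. The group means were 3496 ± 338 and 4332 ± 1229 CPM (standard deviation, n = 3). The log2 fold change of 0.31 (standard error 0.21, interval -0.20 to 0.82) gave an adjusted p = 0.704 with edgeR and an exact permutation p = 0.5. Without SD replicate 1 the log2 fold change was 0.06.

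Bag1 (ENSMUSG00000028416.14), a nucleotide exchange factor of Hsp70 that also binds Bcl2, lies on the minus strand of chromosome 4 from 40934152 to 40948318 in GRCm39. The stretch from 30 bases before its RefSeq start (window chr4:40948245-40948544, minus strand) is shown with the start itself in capitals. The 300 bases of the window hold the antioxidant response core once, on the opposite strand at position -22 from the start.
Bag1: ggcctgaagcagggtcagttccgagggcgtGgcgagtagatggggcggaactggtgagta

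Bag1 was at 929, 1209.8 and 1142 CPM in NLD replicates 1, 2 and 3. The SD libraries gave 1051, 1071 and 983 CPM. All of the SD values fell between the lowest and the highest NLD value. The means were 1093 ± 147 and 1035 ± 46.1 CPM (standard deviation, n = 3), a log2 fold change of -0.08 (standard error 0.14, interval -0.41 to 0.25, adjusted p = 0.884 from edgeR, exact permutation p = 0.6).

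Creb3 (ENSMUSG00000028466.16) encodes a bZIP transcription factor anchored in the membrane of the endoplasmic reticulum and freed by cleavage in the Golgi. It lies on the plus strand of chromosome 4 from 43557639 to 43577647 in GRCm39. The bases around its RefSeq start (window chr4:43562408-43562707, plus strand) identify the row, again with the start in capitals.
Creb3: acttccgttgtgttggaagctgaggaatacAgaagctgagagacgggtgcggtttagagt

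Creb3 was at 527, 425 and 519 CPM in NLD replicates 1, 2 and 3. In SD replicates 1, 2 and 3 it was at 357, 438 and 415 CPM. SD replicates 1 and 3 lay below all NLD libraries, and SD replicate 2 lay above NLD replicate 2. The means were 490.4 ± 56.7 and 403 ± 41.7 CPM (standard deviation, n = 3). The log2 fold change was -0.28 (standard error 0.15, interval -0.63 to 0.07, adjusted p = 0.634 from edgeR, exact permutation p = 0.2). Its unadjusted p from edgeR, 0.0986, was the lowest of the 6 genes.

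Txn1 (ENSMUSG00000028367.6), the cytosolic thioredoxin that reduces disulfides with electrons from NADPH, lies on the minus strand of chromosome 4 from 57934208 to 57956424 in GRCm39. It is the member nearest to the end of the stretch with shared positions, and all 462 windows up to its own have the same bases in both builds. Its window (chr4:57956362-57956661, minus strand) is printed as the one of the most abundant member per length in the GRCm39 annotation, with no match to the motifs searched.
Txn1: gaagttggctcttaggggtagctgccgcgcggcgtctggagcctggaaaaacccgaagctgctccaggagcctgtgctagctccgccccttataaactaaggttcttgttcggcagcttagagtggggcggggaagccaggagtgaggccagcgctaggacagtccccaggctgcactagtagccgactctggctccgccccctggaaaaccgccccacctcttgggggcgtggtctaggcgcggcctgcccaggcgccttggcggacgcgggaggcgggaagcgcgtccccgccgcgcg

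Txn1 was at 2886, 4527 and 3421 CPM in NLD replicates 1, 2 and 3. The SD libraries held 2416, 3205 and 2817 CPM. SD replicates 1 and 3 were below all NLD libraries, and SD replicate 2 was between NLD replicates 1 and 3. The spread was the widest of the members, with a highest value 1.87 times the lowest, and NLD replicate 2, which stood apart on the first component, was the highest. The means were 3611 ± 837 and 2813 ± 395 CPM (standard deviation, n = 3). The log2 fold change of -0.36 (standard error 0.20, interval -0.84 to 0.12) gave an adjusted p = 0.650 with edgeR and an exact permutation p = 0.2. Without NLD replicate 2 it was -0.17.

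**Figure D2:**
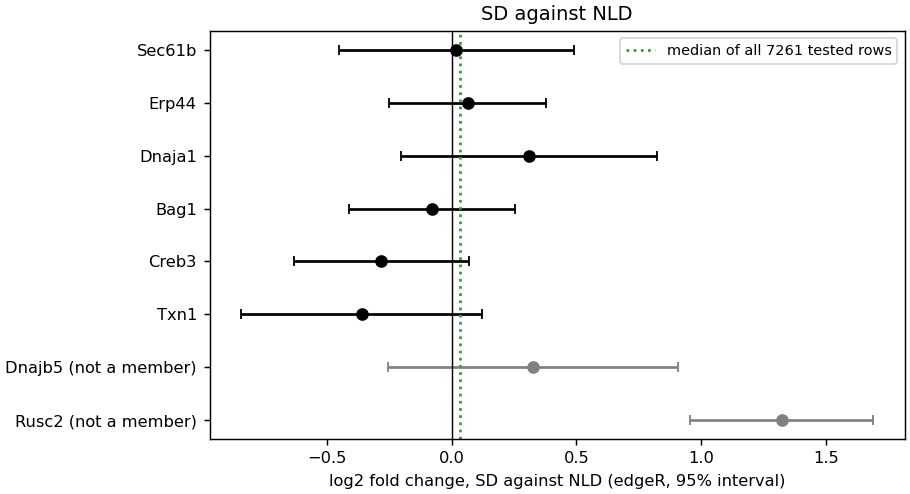
Log2 fold change of SD against NLD (horizontal axis) for the 6 genes, with the 95% interval from edgeR, and in grey Dnajb5 and Rusc2 for comparison. The members' fold changes run from -0.36 for Txn1 to 0.31 for Dnaja1, and the intervals of the members and of Dnajb5 include 0, while that of Rusc2 lies above it.

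The intervals limit what these libraries could show. The lower bound of Txn1 corresponds to 0.558 of the NLD level and the upper bound of Dnaja1 to 1.77 times that level, and these libraries cannot tell changes within such bounds apart. The tightest interval, that of Erp44, ran from 0.841 to 1.3 times the NLD level. Other motifs searched on both strands were TTCNNGAA (8.52% of all windows), TGACGTCA (1.79%), TGACGTGG (0.676%), CACGTG (7.15%) and the endoplasmic reticulum stress response element (0.119%), and no member window held one of them.

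Divided by the length of their merged exons, the levels of the genes spanned more than an order of magnitude. Txn1 was highest at 1460.1 ± 332 CPM per kb (standard deviation over the 6 libraries), and no library of another member reached its lowest value of 1098. Sec61b followed at 602 ± 97.1 CPM per kb and Dnaja1 at 427 ± 101. These neighbours overlapped, with 459.6 to 729 CPM per kb for Sec61b and 344 to 625 for Dnaja1. Bag1, at 294 ± 28.3 CPM per kb, did not reach the lowest library of Dnaja1, and its lowest library, at 257, was above all of Erp44. Erp44 at 132 ± 10.9 CPM per kb and Creb3 at 103 ± 15.04 overlapped. Among the 327 rows at shared positions these levels stood between the percentile 79.5 for Creb3 and 98.5 for Txn1. With the longest transcript as the length the order was the same. Both lengths come from the GRCm39 annotation, in which Dnaja1 shares 7150 bases, 77.9% of its merged exons, with Smu1. In RefSeq of GRCm38 the spans of these genes do not overlap. The level of Dnaja1 per length, and so its place in the order, may differ with another annotation, which was not tested.

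**Figure D3:**
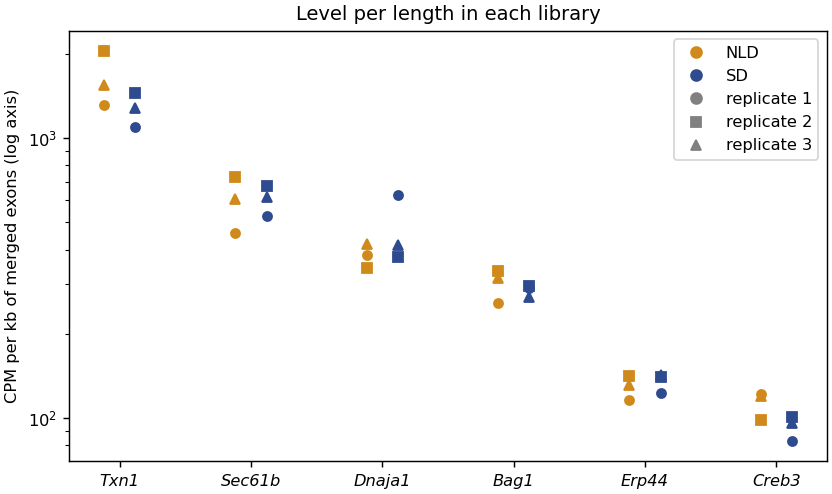
Level of each gene per kb of merged exons (CPM per kb, log axis) in every library, with NLD in orange, SD in blue and the marker shape giving the replicate. Txn1 lies above the others in each library, Sec61b overlaps with Dnaja1, and Erp44 with Creb3.

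Of 15 pairs of members, 7 had a positive Pearson correlation of log2(CPM + 1) over the 6 libraries, and none passed adjustment over the 15. The pairs among Sec61b, Erp44, Bag1 and Txn1 were all positive, with r between 0.50 and 0.92, and each negative pair held Dnaja1 or Creb3. The highest was Sec61b with Erp44, both of the secretory route (r = 0.92, exact permutation p = 0.0111, adjusted p = 0.167, and rho = 0.83, exact permutation p = 0.0583, adjusted p = 0.525). In both genes NLD replicate 1 and SD replicate 1 were the lowest libraries. Without the 2 libraries farthest from the median of Sec61b r was 0.84, and without those farthest from the median of Erp44 it was 0.47, so the relation rests in part on those libraries. The most negative pair was Dnaja1 with Txn1 (r = -0.76, exact permutation p = 0.110, adjusted p = 0.354), and without the 2 libraries farthest from the median r was 0.11. Its rho was -0.66 (exact permutation p = 0.175, adjusted p = 0.525). In SD replicate 1, Dnaja1 was 0.58 above its mean over the libraries on the log2 scale, and Txn1 and Creb3 were 0.38 and 0.31 below theirs. In NLD replicate 2, Txn1 was 0.52 above its mean and Dnaja1 0.28 below.

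**Figure D4:**
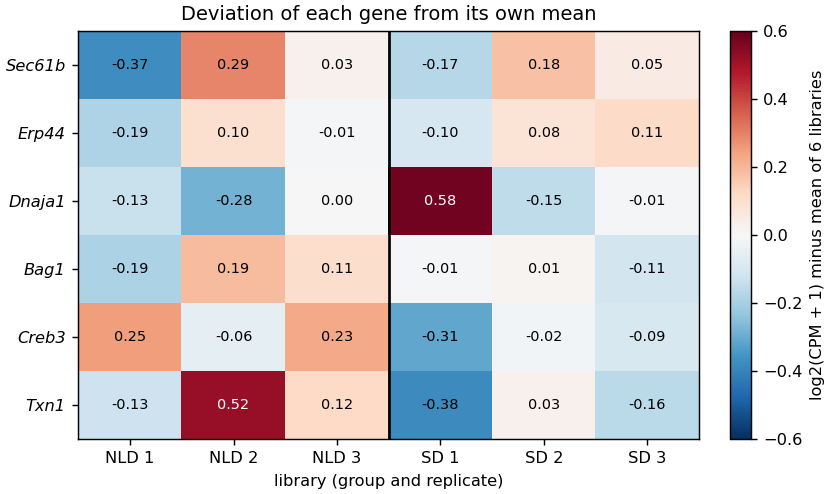
Deviation of each gene in each library from its own mean over the 6 libraries, on the scale of log2(CPM + 1), with NLD to the left and SD to the right of the line. The strongest colours are those of Dnaja1 in SD replicate 1 (0.58) and of Txn1 in NLD replicate 2 (0.52).

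The rows most like each member were sought among the 326 other rows at shared positions, by Pearson correlation over the 6 libraries, given as a description. For Dnaja1 these were Acnat2, an acyltransferase gene (r = 0.98), the pseudogene Bhmt-ps1 (r = 0.94) and Dnajb5, a further J-domain co-chaperone (r = 0.94). Acnat2 was at 3372 CPM in SD replicate 1 and at 497.9 to 1104 CPM in the other 5 libraries. Dnajb5 was at 59.8, 44.8 and 54.4 CPM under NLD and at 88.9, 55.4 and 55.3 CPM under SD. As for Dnaja1, SD replicate 1 was the highest library of each of these 3 rows. By Spearman the 3 rows most like Dnaja1 were Tesk1, Acnat2 and Hsdl2 (rho of 0.94, 0.94 and 0.89), without Dnajb5 and Bhmt-ps1. Reads of Bhmt-ps1, a processed pseudogene, may come from its parent gene or other near-identical copies, so its level is uncertain.

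**Figure D5:**
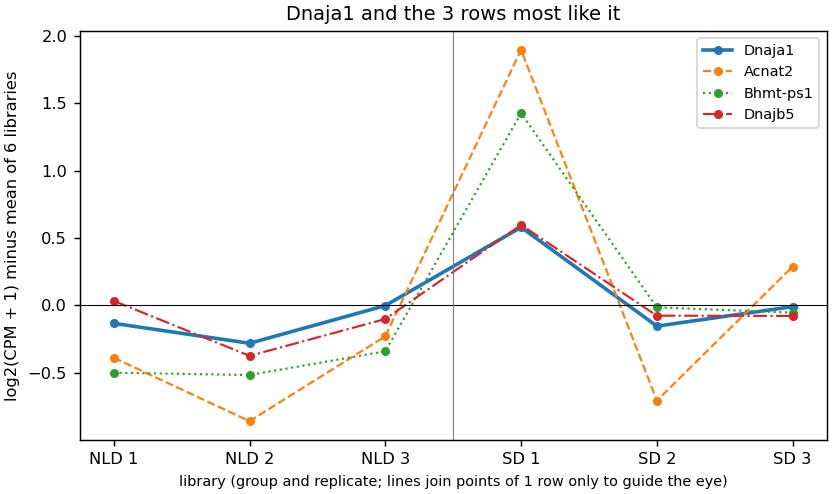
Dnaja1 and the 3 rows at shared positions most like it by Pearson correlation, as log2(CPM + 1) minus the mean of the 6 libraries (vertical axis), by library. All of them peak in SD replicate 1, where Dnaja1 was at 5736 CPM and Acnat2 at 3372 CPM.

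Erp44 was most like Manea, a Golgi mannosidase gene (r = 0.93), Sec61b (r = 0.92) and Gne, of sialic acid synthesis (r = 0.85). Sec61b was most like Svep1, an extracellular matrix gene with at most 14.9 CPM, Ndufb6, of respiratory complex I, and the lncRNA A430035B10Rik (r of 0.95, 0.95 and 0.93). Bag1 was most like Gm13304 (r = 0.99, at most 12.4 CPM), Exosc3, of the RNA exosome (r = 0.93), and Rps20, of the small ribosomal subunit (r = 0.93). The row of Gm13304 was at 0 CPM in NLD replicate 1 and at 2.37, 3.82 and 1.53 CPM under SD, so its r rests on low values. Creb3 was most like Gba2, a glucosylceramidase gene (r = 0.97), the pseudogene Gm12430 (r = 0.94) and Aptx, of DNA repair (r = 0.93). Txn1 was most like Rab2a, of traffic between endoplasmic reticulum and Golgi (r = 0.98), Tstd3 (r = 0.97) and the chemokine gene Ccl19 (r = 0.95, at most 22.9 CPM), which has near-identical copies nearby and so an uncertain count. Rab2a was at 1418, 1783 and 1562 CPM under NLD and at 1238, 1435 and 1318 CPM under SD, with NLD replicate 2 the highest and SD replicate 1 the lowest, as in Txn1.

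Some members overlap other genes in the GRCm39 annotation, and whether the counting used strand is not given. Smu1, on the opposite strand, shares 7150 bases with Dnaja1, 77.9% of the merged exons of Dnaja1, although their spans do not overlap in RefSeq of GRCm38. Smu1 was at 716 ± 21.6 CPM under NLD and 574 ± 80.5 under SD (standard deviation, n = 3), lowest in SD replicate 1 where Dnaja1 was highest (r = -0.82 over the 6 libraries). Gba2, on the opposite strand, shares 1693 bases with Creb3, 39.0% of the merged exons of Creb3. In RefSeq of GRCm38 the spans of Creb3 and Gba2 share only 134 bases. The overlap in GRCm39 is present beside the correlation of 0.97 given above. Reads in the shared bases cannot be told apart between these genes without strand, and their part in the values of Dnaja1 and Creb3 was not tested. The overlaps of Bag1 with Chmp5 (16.1%), of Creb3 with Tln1 (9.7%) and of Erp44 with Invs (2.32%) are smaller. The microRNA genes Mir207 and Mir1958 lie within Dnaja1 and Erp44, and their rows held at most 0.172 CPM.

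The wider pathways were described through 6 lists, in which only the members, Dnajb5 and Asns lie at shared positions. For every other row of these lists the gene named may not be the one counted. The counts, medians and fold changes of the lists therefore describe rows by name, and a stated function belongs to the name only. In none of the lists did edgeR call a row at an adjusted p under 0.05. The counts below stand beside 8.48% of all tested rows at an unadjusted p under 0.05 in edgeR (4.46% higher and 4.02% lower) and beside 1.90% at an adjusted p under 0.05 in DESeq2 on the same rows (1.07% with no filter). Of 12 tested rows of translocation and signal peptide handling, out of 40 in the table, 1 was lower at an unadjusted p under 0.05 (Srpr, the receptor of the signal recognition particle, -0.43 on the log2 scale), and DESeq2 called none. The median log2 fold change of that list was 0.04, and Emc1, of the membrane protein complex EMC, had -0.39 (adjusted p = 0.650 from edgeR), or -0.18 without NLD replicate 2. Of 14 tested rows of redox and disulfide formation, out of 34, 4 had an unadjusted p under 0.05 (1 higher, 3 lower) beside the 8.48% of all tested rows, with a median of 0.10.

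The row named Vkorc1l1, for an enzyme of the endoplasmic reticulum that reduces vitamin K epoxide, was at 290.5, 390.2 and 397 CPM under NLD and at 606, 644 and 609.9 CPM under SD. The groups did not overlap, and the log2 fold change was 0.79, with adjusted p = 0.221 in edgeR and 0.000541 in DESeq2. The row named Txndc16, for a luminal protein with thioredoxin domains, was at 119, 186 and 168 CPM under NLD and at 83.3, 92.2 and 96.0 CPM under SD. Here the SD libraries were all lower, with a log2 fold change of -0.80 and adjusted p = 0.337 in edgeR and 0.0181 in DESeq2. DESeq2 called these rows, 1 higher and 1 lower, on the rows kept by the filter, while with no filter it called only Vkorc1l1 (adjusted p = 0.0742 for Txndc16). Both genes lie outside the stretches with shared positions. The other 2 rows lower at an unadjusted p under 0.05, named after their values were seen, were P4hb, protein disulfide isomerase (39.4 ± 3.00 and 29.8 ± 1.6 CPM, standard deviation, n = 3), and Pdia4, of the same family (6.91 ± 0.571 and 3.09 ± 1.68 CPM, standard deviation, n = 3).

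Of 10 tested chaperone rows of the endoplasmic reticulum, out of 30, none had an unadjusted p under 0.05 or a call from DESeq2, and the median log2 fold change was 0.18. The row of Uggt1, the folding sensor that adds glucose back to unfolded glycoproteins, had 0.85 (adjusted p = 0.622 from edgeR), with 1.36 without NLD replicate 1 and 0.55 without NLD replicate 2. The row of Creld1 had 1.495 with 14.5 CPM in SD replicate 2 and at most 4.85 CPM elsewhere, and -0.15 without that library. Of 24 tested cytosolic chaperone rows, out of 63, 3 had an unadjusted p under 0.05 (2 higher, 1 lower) beside the 8.48% of all tested rows, and the median was -0.08. DESeq2 called 1 higher on the rows kept by the filter and none with no filter. Named after their values were seen, these were Cdc37l1, an Hsp90 co-chaperone (94.6 ± 7.79 CPM under NLD and 138 ± 6.12 under SD, standard deviation, n = 3, 0.55 on the log2 scale with an edgeR adjusted p = 0.327 and a DESeq2 one of 0.0124, or 0.364 with no filter), Dnajc21 (0.38 on the log2 scale) and Dnajb2 (-0.50). Both of the latter encode J-domain proteins. Dnajb5 had a log2 fold change of 0.33 (adjusted p = 0.714 from edgeR), or 0.063 without SD replicate 1.

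Of 12 tested rows of stress factors and unfolded protein response targets, out of 38, 1 was higher at an unadjusted p under 0.05, close to the 8.48% of all tested rows, the median was 0.21, and DESeq2 called none. That row was Sel1l, of the machinery that degrades misfolded proteins, named after its values were seen (106 ± 10.9 CPM under NLD and 152 ± 36.2 under SD, standard deviation, n = 3, adjusted p = 0.578 from edgeR). Its log2 fold change was 0.52, or 0.33 without SD replicate 1. Asns, the asparagine synthetase gene induced by Atf4, was at 17.6 CPM in SD replicate 2 and at 6.1 to 9.03 CPM elsewhere, with a log2 fold change of 0.36 (adjusted p = 0.855 from edgeR), or -0.35 without SD replicate 2. Of 15 tested rows of the thioredoxin and antioxidant system, out of 37, 1 was higher at an unadjusted p under 0.05 (Gss, glutathione synthetase, 0.53), the median was -0.16, and DESeq2 called none. Txnrd2, the mitochondrial thioredoxin reductase, had -0.32 (adjusted p = 0.598 from edgeR), and its groups did not overlap.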

How the data were processed

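Liver RNA of 3 NLD and 3 SD mice was sequenced, each mouse giving 1 library. The deposited values are raw whole-number counts per gene, for which the authors used fastp, HISAT2 and StringTie. Their genome is GRCm39 by the methods and GRCm38 by the labels, and no source used states the step from StringTie to counts, the annotation or the strand setting. The methods and the labels also name different RNA kits. The main test was that of edgeR 4.0.16 under R 4.3.3 (TMM factors, rows kept by filterByExpr, robust quasi-likelihood fit, group only, two-sided, Benjamini-Hochberg adjustment over 7261 rows). The code was tested on simulated data, with changes larger than those of the members. Recovery was required only at a lower spread between libraries than in these data. That test therefore cannot show whether changes of the members' size would be found. DESeq2 1.42.0 was an alternative. Depth was 5497797 to 6932965 counts per library, and the members had 2109 to 33880 counts, so counting error is small beside the spread between mice. Within a group the libraries differed beyond sampling noise (34.8 to 71.4 in chi-square per row), so each counts as 1 sample.

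Permutation tests and correlations used log2(CPM + 1). Exon lengths and positions came from the GENCODE annotation of GRCm39 (54749 rows matched on gene ID), and promoters from RefSeq GRCm38.p6. All 6 members matched both. A row was at a shared position within a leading stretch of a chromosome whose promoter windows all have the same bases at the same coordinates. Windows of 1 gene can overlap.

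The members and lists were chosen with earlier results of these data known. Named were the members, up to 3 rows per list with the smallest p at shared positions or else 2 elsewhere, the 3 rows most like each member, overlapping rows, and any called row at a shared position on chromosome 4. Marker rows serve as a check of the tissue. The result of a marker gene is not reported here. Alternatives were RLE and upper quartile factors, TMM from rows at shared positions, a minimum of 10 counts in each library or no filter, non-robust fitting, DESeq2 with and without the filter, a replicate block, each library left out, summing rows of 1 symbol, dropping the 10 most abundant rows, longest transcripts as lengths, and Spearman for likeness.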

Additional observations from a re-analysis of the deposited data

How the results depend on the processing

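No member reached an adjusted p under 0.05 under any of the 17 alternatives of the test. Over these, log2 fold changes ranged from -0.14 to 0.18 for Sec61b, -0.01 to 0.13 for Erp44, 0.06 to 0.44 for Dnaja1, -0.18 to -0.01 for Bag1, -0.38 to -0.20 for Creb3 and -0.50 to -0.17 for Txn1. With edgeR, an unadjusted p under 0.05 was seen for Txn1 with TMM factors from rows at shared positions (-0.40, unadjusted p = 0.0499), with the replicate block (-0.34, 0.0350) and without NLD replicate 1 (-0.50, 0.0397), and for Creb3 without NLD replicate 2 (-0.38, 0.0441). Sec61b changed sign with TMM factors from rows at shared positions (-0.019), without NLD replicate 1 (-0.14) and without SD replicate 2 (-0.07), Erp44 without NLD replicate 1 (-0.0086), and Creld1 and Asns without SD replicate 2 (-0.15 and -0.35, with up to 2.84 and 0.62 when another library was left out). The cause was not tested. Over all rows, 21 calls became 44 with no filter on low counts, 137 with DESeq2 on the same rows, 91 with DESeq2 and no filter, and 0 to 30 with 1 library left out, 0 without any 1 SD library. Unadjusted calls ranged from 397 without SD replicate 3 to 1138 without NLD replicate 1, beside 616. The labels do not say that replicate numbers pair mice. With the replicate block calls fell to 0 and unadjusted ones rose to 766. Same-numbered libraries correlated at 0.08, 0.07 and 0.04 in their deviations, and each library correlated best with its own number. These correlations are small and were not set against a chance level, so they cannot decide whether the numbers pair mice. With the longest transcript as length, levels were 3019 CPM per kb for Txn1, 954 for Sec61b, 679 for Dnaja1, 221 for Erp44 and 177 for Creb3. By Spearman, 9 of the 18 rows most like a member were kept. Among those not kept were Dnajb5 for Dnaja1, Sec61b for Erp44 and Gba2 for Creb3. DESeq2 called Vkorc1l1 (0.78, adjusted p = 0.000541, and 0.78, 0.0161 with no filter), Txndc16 (-0.81, adjusted p = 0.0181) and Cdc37l1 (0.54, adjusted p = 0.0124), and with no filter it lost the last pair (0.0742 and 0.364). Rusc2 lost its call without any 1 library (1.22 to 1.39), with TMM factors from rows at shared positions (1.28) and with the replicate block, all with the same sign. In DESeq2 it was called with and without the filter (1.31 in each). Depth did not limit the members, whose counts were at least 2109.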
